A study of Mus musculus with 16 samples.

Results

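The genes described here are, with few exceptions, those of the protein subunits of oxidative phosphorylation. They were chosen by symbol: the Ndufa, Ndufb, Ndufc, Ndufs and Ndufv genes of complex I, Sdha to Sdhd of complex II, Cyc1 and the Uqcr genes of complex III, the Cox4i, Cox5, Cox6, Cox7 and Cox8 genes of complex IV, the Atp5 genes of complex V, and the mitochondrially encoded mt-Nd, mt-Co, mt-Cytb and mt-Atp genes. Assembly factors (Ndufaf), symbols ending in -ps and unnamed copies were left out. Ndufa11b and Ndufs6b, which are annotated as processed pseudogenes, were kept by their symbols. The rule took 97 of the 32207 genes in the table, 88 encoded in the nucleus and 9 in mitochondrial DNA. By complex, the nuclear members numbered 40 (I), 4 (II), 9 (III), 18 (IV) and 17 (V), and the mitochondrial ones 5 (I), 1 (III), 2 (IV) and 1 (V). Of the 97, 89 passed the filter on low counts and were tested, 82 nuclear and 7 mitochondrial.

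The 16 libraries held RNA of O4-positive brain oligodendrocytes, enriched with magnetic beads, from OF-1 mice (an outbred strain; no allele is named) at postnatal day 16. There were 4 libraries for each sex and exposure: control males, control females, and males and females exposed to BPA. Bisphenol A (BPA), an industrial plasticizer component, reached the pups through their mothers' drinking water from gestational day 7 and on through lactation, and control mothers are described with no further treatment. The water held 250 µg/mL by the design text, and exposure was estimated at 40 µg/kg/day; the 2 figures were not reconciled here. Neither litter nor batch is labelled, so littermates may share a group, and p-values measure only the spread between these libraries. Total counts ran from 23603816 to 42575326 per library. Levels are given in CPM, a gene's counts scaled to a common library total. The 10 markers of myelinating oligodendrocytes summed to between 115142 and 163252 CPM per library, and the 10 neuronal markers (9 tested) to between 58.4 and 75.7 CPM. Male BPA 2 had an astrocyte marker sum (10 of 10 genes tested) of 6871 CPM, against 1016 to 2702 CPM in the other 15, and the lowest myelinating sum. Female BPA 1 had the highest blood marker sum, 4899 CPM against at most 3457 CPM elsewhere. Its microglial sum was also the highest, 2375 CPM against at most 1931 CPM. Results for males are therefore also given without male BPA 2, and some medians without both of these libraries together. In bulk RNA such as this, fewer cells of a type and less RNA per cell cannot be told apart.

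Oxidative phosphorylation moves electrons from NADH (through complex I) and succinate (through complex II) by way of ubiquinone, complex III and cytochrome c to oxygen at complex IV. Protons pumped on the way drive ATP synthase, complex V. Complex II is encoded wholly in the nucleus, while the other complexes combine nuclear subunits with a few core subunits made inside the organelle from mitochondrial DNA. Oligodendrocytes that are building myelin are known for a high demand for ATP and for lipid precursors.

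The nuclear genome holds copies of mitochondrial DNA that a short read may match as well as the gene itself, so the sequences of 3 mitochondrial genes are shown beside those copies. Each window is the stretch of 90 bases with the most differences in the alignment (the first such stretch on a tie), read 5′ to 3′ on the gene's strand from GENCODE M21 transcripts (build GRCm38, while the counts were made on mm39), and capitals mark the bases that differ. The subunit mt-Nd5 (chrM:12630-12719, plus strand) and Gm4076 (chr13:85127242-85127331, minus strand) differ at 11 of these bases.
mt-Nd5: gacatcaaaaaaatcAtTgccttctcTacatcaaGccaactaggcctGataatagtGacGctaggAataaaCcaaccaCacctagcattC
Gm4076: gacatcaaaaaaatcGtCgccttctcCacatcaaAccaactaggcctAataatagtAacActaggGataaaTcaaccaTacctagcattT
The subunit mt-Nd2 (chrM:4685-4774, plus strand) and Gm13339 (chr2:22590201-22590290, minus strand) differ at 6 of 90.
mt-Nd2: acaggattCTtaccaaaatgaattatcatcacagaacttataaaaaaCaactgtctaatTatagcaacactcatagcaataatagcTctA
Gm13339: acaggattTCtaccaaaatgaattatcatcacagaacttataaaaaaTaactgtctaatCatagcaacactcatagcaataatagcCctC
The subunit mt-Co2 (chrM:7013-7102, plus strand) and Gm28661 (chr1:24615476-24615565, minus strand) differ at 0 of 90.
mt-Co2: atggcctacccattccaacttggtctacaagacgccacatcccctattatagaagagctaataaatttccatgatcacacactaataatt
Gm28661: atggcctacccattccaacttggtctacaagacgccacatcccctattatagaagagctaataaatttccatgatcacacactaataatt

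Mitochondrial DNA encodes 13 proteins, of which 9 had a row in the table and 4 (mt-Atp8, mt-Co3, mt-Nd3 and mt-Nd4l) had none. Of the 9 with a row, 2 were near 0. The gene of the copper-binding complex IV subunit, mt-Co2, had 7 counts over all 16 libraries, with at most 2 in a library and 0 in 11 of them. The gene of the proton channel subunit of ATP synthase, mt-Atp6, had 11 counts, all in male control 4. Both genes are nearly or wholly repeated on chromosome 1: over 681 aligned bases mt-Co2 and Gm28661 were identical at 681, and over 678 aligned bases mt-Atp6 and Gm10925 were identical at 678.

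The share of a gene's 50-base words that also occur in another annotated gene separated most of these genes. It was 100% for mt-Co2, 99.5% for mt-Atp6, 99.9% for mt-Co3, 98.0% for mt-Nd3 and 98.8% for mt-Nd4l, which were the genes near 0 or without a row. The share was 62.2% for mt-Nd4 and 51.1% for mt-Co1, which had at least 26766 and 59248 counts in every library, and 0% for mt-Cytb, mt-Nd1 and mt-Nd6. By this measure the exception was mt-Atp8, which had no row although none of its words were shared. Only annotated transcripts were searched, so a copy in the genome without an annotated gene would be missed. How reads with several equally good positions were treated is not given in the sources used here. Among the tested nuclear members, Atp5o (41.6%), Atp5g2 (38.3%), Ndufb6 (31.6%), Ndufa13 (28.5%), Uqcrb (25.5%), Cox7c (22.1%) and Ndufs5 (21.7%) shared the most words with other genes. For Atp5g2, Uqcrb, Cox7c and Ndufs5 the gene sharing most words was a processed pseudogene, so their levels are uncertain in the same way. For Ndufb6 (Smim27) and Ndufa13 (Tssk6) it was a protein-coding gene on the same chromosome, and for Atp5o an antisense gene (Gm15976). Whether these overlap at 1 place, which would give a read no second position, was not examined.

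The 2 partly matching copies shown above were counted in some libraries and hardly at all in others. Counts of Gm4076 ran from 724 to 1933 in 10 libraries and from 0 to 13 in the other 6, which were male control 3, female controls 1, 2 and 3, male BPA 1 and female BPA 3. Counts of Gm13339 split the same libraries, with 200 to 491 in the 10 and 0 to 2 in the 6. In the 10 libraries, Gm4076 held from 3.53 to 4.37% as many counts as mt-Nd5. Over their whole alignments mt-Nd5 and Gm4076 were identical at 908 of 954 bases, and mt-Nd2 and Gm13339 at 493 of 510. The ribosomal RNA gene mt-Rnr2 had 30 to 84 counts in the 10 libraries and 18 to 26 in the 6. The 10 libraries comprised 3 of the males and 1 of the females among controls, and 3 of each sex with BPA, so the split crosses the groups unevenly, and its part in the results was not tested. With the copies' counts added to mt-Nd5 and mt-Nd2, no member was called in any comparison, and the median log2 fold change of the mitochondrial members in females was -0.081 in place of -0.108.

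Levels of different genes were compared per kb, with the authors' median transcript length of each gene. That length is a median over a gene's transcripts and need not be that of its main RNA. Orders between genes therefore depend on it. In the 8 control libraries mt-Cytb, the cytochrome b of complex III, had the highest level per kb among the tested members. It stood at 2970 ± 566 CPM per kb (SD, n = 8). It was followed by mt-Co1, the catalytic subunit of complex IV, at 1790 ± 220 CPM per kb and by mt-Nd1, a membrane subunit of complex I, at 1550 ± 216 CPM per kb. The last 2 differed by about their spread. Further down, mt-Nd4 stood at 902 ± 149, mt-Nd2 at 804 ± 113 and mt-Nd5 at 490 ± 78.3 CPM per kb (SD, n = 8). The complex I subunit mt-Nd6, the one mitochondrial protein gene on the light strand, was far below the rest at 9.90 ± 1.82 CPM per kb. All libraries were poly(A)-selected, which limits these levels to polyadenylated RNA. Shared words differed too: 51.1% for mt-Co1 and 62.2% for mt-Nd4, against 0% for mt-Cytb and mt-Nd1. If reads from shared stretches were not counted, mt-Co1 and mt-Nd4 would be understated, so the order of these genes is uncertain. This was not tested, and mt-Co2 and mt-Atp6, near 0, could not be placed.

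Most nuclear subunits lay below the tested mitochondrial ones other than mt-Nd6. The catalytic beta subunit of ATP synthase, Atp5b, led them with 700 ± 17 CPM per kb in controls. The alpha subunit Atp5a1 followed with 494 ± 13.9 CPM per kb (SD, n = 8). Atp5b thus stood above mt-Nd5 (490 ± 78.3 CPM per kb), and Atp5a1 was about level with it. In complex IV, Cox4i1 led with 350 ± 24.5 CPM per kb. In complex II the highest per kb was the flavoprotein Sdha with 287 ± 12.8 CPM per kb. The lowest was the membrane anchor Sdhd with 49.4 ± 2.28 CPM per kb. Sdha was divided by only 0.521 kb and Sdhd by 1.231 kb, so their ranks depend on those lengths. Without length the control means were 149.5 CPM for Sdha and 60.8 CPM for Sdhd. Complex III was led by its core protein Uqcrc1 with 205 ± 8.72 CPM per kb. The median over the tested nuclear members was 61.0 CPM per kb in complex I, 95 in II, 101 in III, 82.6 in IV and 85.2 in V, so the 5 complexes had medians of similar size while single subunits within a complex differed widely. The lowest tested members were Ndufa4l2 (0.239 CPM per kb), Cox6a2 (0.306), Atp5g1 (0.644) and, in complex III, Uqcrb (17.6).

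**Figure D1:**
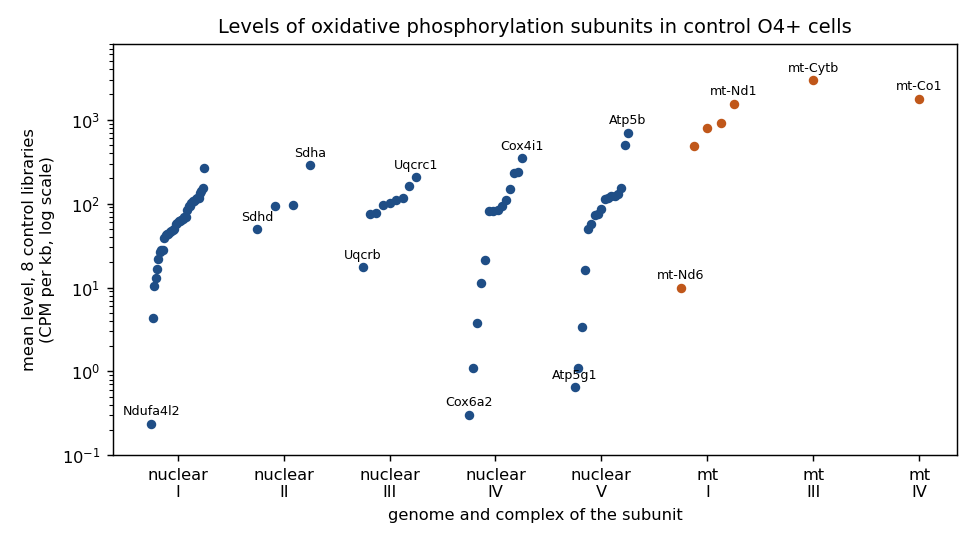
Mean level of each tested member in the 8 control libraries (CPM per kb, log scale), by genome and complex; each point is 1 gene, and the highest and lowest of each set are named (only the lowest in nuclear complex I). The mitochondrial members lie from 490 to 2970 CPM per kb except mt-Nd6 at 9.90, and the nuclear members reach 700 CPM per kb at Atp5b.

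Several subunits of complex IV have a widely used form and a form known mainly from muscle, lung, testis or low oxygen. In these cells the widely used form made up nearly all of each pair. The share of the second form, per length and averaged over the 16 libraries, was 0.0397 ± 0.0202% for Cox4i2 beside Cox4i1, 0.133 ± 0.0595% for the muscle form Cox6a2 beside Cox6a1, and 1.05 ± 0.456% for the muscle form Cox7a1 beside Cox7a2 (SD, n = 16). For Cox8b beside Cox8a it was 0.0963 ± 0.0761%, and for Cox7b2 beside Cox7b 0.261 ± 0.179%. The largest minor form of this kind was Cox6b2, known as a testis form, with 4.19 ± 0.535% beside Cox6b1 and a range of 3.45 to 5.22%. Cox7a2l, a relative of Cox7a2 that helps join complexes III and IV, made up 16.4 ± 1.78% of that pair, and Ndufa4l2, known as a low-oxygen form, 0.145 ± 0.0499% beside Ndufa4.

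The c subunit, which forms the rotor ring of ATP synthase, is encoded by 3 genes with the same mature protein. Here Atp5g3 carried nearly all of it: beside Atp5g3, Atp5g1 made up 0.419 ± 0.105% and Atp5g2 0.725 ± 0.170% per length (SD, n = 16). Both minor shares are uncertain: Atp5g2 shares 38.3% of its words with other genes and Atp5g1 11.1%, and Gm10039, the copy that shares most words with Atp5g1, had from 67 to 206 counts per library. Cox4i2, Cox7b2 and Cox8b were below the filter, with 59, 73 and 28 counts over all libraries. Also below it were Cox6c2, Ndufa11b and Ndufs6b. Cox8c and Ndufb4c had no row.

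The promoters of the nuclear members were searched for motifs of factors long tied to respiratory genes. NRF1 and the ETS-family factor GABP are textbook regulators of these subunits, and YY1 binds near the start of many of them. RefSeq promoter sequences (GRCm38.p6, 250 bases before to 50 after the start) were found for 69 of the 88 nuclear members. The NRF1 motif GCATGCGC, read on both strands like the others, was present in 10 of the 69 (14.5%), against 5.51% of the promoters of other tested genes with an entry and 3.05% of all promoters of this length. The 10 were Atp5g2, Atp5k, Atp5l, Cox6a1, Ndufa11, Ndufa6, Ndufa8, Sdhb, Uqcr11 and Uqcrc1. With 1 free base (GCNTGCGC, which contains the first motif) it was present in 34.8%, against 20.87% of other tested genes and 11.16% of all promoters. The YY1 motif AAGATGGCG was present in 7 of 69 (10.1%: Atp5j, Atp5j2, Ndufa9, Ndufc1, Ndufs4, Ndufs6 and Ndufs7), against 3.16% and 1.64%. The ETS motif CCGGAAG was present in 23.2%, against 18.17% and 9.93%. The CCAAT box was present in 43.5% against 42.68% and 41.06%, and the TATA box TATAAA in 10.1% against 9.05% and 15.67%. These are descriptions of letters and show no binding.

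The following 3 promoters show the range, with the NRF1, ETS and YY1 motifs in capitals: 2 with the first NRF1 motif, Cox6a1 (chr5:115348909-115349208, minus strand) and Uqcrc1 (chr9:108936398-108936697, plus strand), and Cox7b (chrX:106015450-106015749, plus strand), the most variable abundant member, which holds none of them.
Cox6a1: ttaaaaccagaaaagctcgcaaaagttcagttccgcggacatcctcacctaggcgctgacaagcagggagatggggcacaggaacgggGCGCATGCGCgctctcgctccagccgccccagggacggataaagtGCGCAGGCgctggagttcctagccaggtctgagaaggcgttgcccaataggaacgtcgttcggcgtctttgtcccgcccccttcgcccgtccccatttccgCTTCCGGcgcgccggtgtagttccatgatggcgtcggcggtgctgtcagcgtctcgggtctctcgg
Uqcrc1: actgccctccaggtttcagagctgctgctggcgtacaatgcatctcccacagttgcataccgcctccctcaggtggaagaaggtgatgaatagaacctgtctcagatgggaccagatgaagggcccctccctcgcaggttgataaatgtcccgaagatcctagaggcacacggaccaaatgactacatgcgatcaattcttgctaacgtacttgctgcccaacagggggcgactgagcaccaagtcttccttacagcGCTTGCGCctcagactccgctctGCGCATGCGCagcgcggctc
Cox7b: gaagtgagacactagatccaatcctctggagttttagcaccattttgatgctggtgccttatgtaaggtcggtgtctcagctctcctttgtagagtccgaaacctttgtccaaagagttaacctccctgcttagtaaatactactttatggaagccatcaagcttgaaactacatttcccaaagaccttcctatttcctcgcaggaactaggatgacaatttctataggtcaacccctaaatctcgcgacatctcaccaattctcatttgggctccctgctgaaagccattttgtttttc

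Summed over their members, the nuclear genes of males took 0.525 ± 0.0422% of all counts without BPA and 0.541 ± 0.0234% with it, and those of females 0.523 ± 0.0276% and 0.527 ± 0.0248% (SD, n = 4 each). The mitochondrial genes took 1.03 ± 0.164% and 1.11 ± 0.0746% in males, and 1.09 ± 0.162% and 1.1 ± 0.0647% in females. The ranges of the 4 groups overlapped for both. Over the 16 libraries the nuclear share ran from 0.471% (male control 4) to 0.571% (male BPA 3), and the mitochondrial share from 0.899% (female control 3) to 1.29% (female control 4). The Wilson 95% interval of the lowest nuclear share, 0.4686 to 0.4732%, covers counting error only and was far narrower than the spread between libraries. There were from 1.76 to 2.41 mitochondrial counts for each nuclear count, and the mitochondrial share holds only the genes that could be counted.

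**Figure D2:**
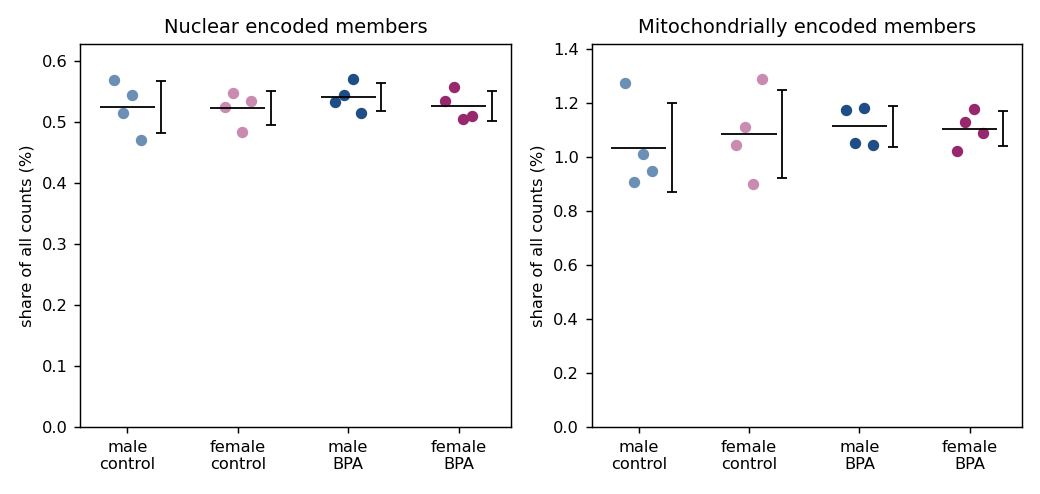
Share of all counts from nuclear (left) and mitochondrially encoded (right) members in each library (%), by group; points are libraries, lines are means and bars are 1 SD (n = 4). The groups overlap in both panels, and the control libraries span the wider mitochondrial range, 0.899 to 1.29% against 1.02 to 1.18% with BPA.

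The first comparison asked whether perinatal BPA altered these genes over both sexes (8 against 8 libraries). No member passed an adjusted p of 0.05 in limma-voom, where 0.0184% of the 16339 genes tested did. At an unadjusted p under 0.05, 2 of 89 members were found, by limma-voom and by limma-trend alike in number, where the share over all genes was 7.69%. The members' share, 2.2%, was below that of all genes. The nuclear members had a median log2 fold change of 0.024, with 59 of 82 above 0 (51.2% of all genes were), and the 7 mitochondrial members a median of 0.036 with 5 above 0. The median over all genes was 0.003. The library medians within groups had an SD of 0.088 for nuclear members. That is a spread of single libraries, while the nuclear median compares 8 with 8, so the 2 values cannot be set directly against each other. The 95% interval of the fold change lay within 1.2-fold of no change for 65 of the 82 nuclear members and for 3 of the 7 mitochondrial ones.

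The 2 members with an unadjusted p under 0.05 were Cox6b2 and Sdhc. The minor complex IV subunit Cox6b2 had 4.13, 5.18 and 6.21 CPM in controls and 3.96, 4.39 and 5.03 CPM with BPA (lowest, median and highest of 8). Most control libraries lay above the BPA libraries, but the groups overlapped. Its log2 fold change was -0.21 ± 0.09 (SE), with an adjusted p of 0.579 in limma-voom. Sdhc, a membrane anchor of complex II, had 74.0, 78.3 and 84.9 CPM in controls and 77.0, 83.6 and 89.7 CPM with BPA. The groups overlapped, and its log2 fold change was 0.08 ± 0.04 (SE; adjusted p = 0.631 in limma-voom). Atp5b, the most abundant nuclear member, lay between 519 and 565 CPM in all 16 libraries, with a log2 fold change of 0.00 (95% interval -0.06 to 0.06).

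In males, 0 of 89 members were called (0.00612% of all genes were), and 3 had an unadjusted p under 0.05 in limma-voom and 3 in limma-trend, where the share over all genes was 7.96%. The nuclear members had a median log2 fold change of 0.054, with 67 of 82 above 0 against 52.5% of all genes and a median over all genes of 0.009. By complex, 31 of 38 in complex I, 3 of 4 in II, 9 of 9 in III, 11 of 14 in IV and 13 of 17 in V were above 0. The 7 mitochondrial members had a median of 0.15, with 6 above 0. Marker lists of cell types differed between the same libraries. In the sorted lineage, oligodendrocyte precursor markers had 0 of 10 above 0 (median log2 fold change -0.385, 4 lower at an unadjusted p under 0.05), committed and newly formed oligodendrocyte markers 2 of 9 (-0.246, 3 lower) and myelinating markers 9 of 10 (0.058). Of other cell types, mural and fibroblast markers had 7 of 8 above 0 (0.728), ependymal and choroid plexus 6 of 8 (0.535), microglia 10 of 10 (0.411) and astrocytes 10 of 10 (0.171). Endothelial markers had 4 of 8 above 0 (-0.003), neurons 2 of 9 (-0.091) and blood 0 of 6 (-0.234). Their part in the result was not tested. Genes share libraries, so the counts above 0 are not independent observations. Without male BPA 2 the medians were 0.080 and 0.208, and over single left-out libraries the mitochondrial median ran from 0.101 (without male BPA 1) to 0.271 (without male control 1). The nuclear median was 0.016 without male BPA 3, 0.016 without male control 4 and 0.105 without male control 1, and the number at an unadjusted p under 0.05 was 10 without male control 1, 10 without male BPA 2, 1 without male control 2 and 1 without male BPA 3.

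Among the males' members, Sdhc had 84.9, 76.0, 78.6 and 74.0 CPM in controls 1 to 4 and 83.2, 85.7, 89.7 and 84.0 CPM in BPA 1 to 4. Control 1 overlapped the BPA libraries and the other 3 controls lay below all of them. The log2 fold change was 0.13 ± 0.05 (SE; adjusted p = 0.53, limma-voom). Ndufv2, the iron-sulfur subunit at the NADH end of complex I, ran from 60.3 to 74.2 CPM in male controls and from 70.0 to 81.0 CPM in BPA males, with a log2 fold change of 0.17 ± 0.07 (adjusted p = 0.548). The accessory subunit Ndufa10 ran from 75.2 to 86.8 CPM and from 84.5 to 91.2 CPM, with 0.12 ± 0.05 (adjusted p = 0.60). The ranges overlapped for both genes.

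In females, 0 of 89 members were called (0.0% of all genes were), and 1 had an unadjusted p under 0.05 in limma-voom and 1 in limma-trend, where the share over all genes was 4.55%. The nuclear median was -0.014 with 30 of 82 above 0, against 50.6% of all genes and a median over all genes of 0.002. The 7 mitochondrial members had a median of -0.108, with 2 above 0. The nuclear median had no stable sign: it was 0.014 without female control 2, 0.004 without female control 4, 0.004 without female BPA 3 and 0.005 without female BPA 4. The mitochondrial median ran from -0.192 (without female BPA 3) to -0.027 (without female BPA 1). The nuclear copies Gm4076 and Gm13339 had over 100 counts in 1 female control and 3 BPA females. The part of this split in the mitochondrial median was not tested. Precursor markers had 10 of 10 above 0 in females (median 0.158), and myelinating markers 2 of 10 (-0.049). The other lists had medians from -0.019 (endothelial) to 0.263 (blood), and the part of all of them was not tested.

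The 1 member was Sdhb, the iron-sulfur subunit of complex II. It had 102, 116, 103 and 108 CPM in female controls 1 to 4 and 94.2, 104, 93.2 and 86.4 CPM in BPA females 1 to 4. BPA 2 overlapped the controls, and the other 3 BPA libraries lay below them all. The log2 fold change was -0.19 ± 0.08 (SE; adjusted p = 0.999, limma-voom). In males that of Sdhb was -0.01 (95% interval -0.17 to 0.16), and the difference between the sexes was -0.18 (95% interval -0.41 to 0.05). Sdhb and Sdhc belong to the same 4-subunit complex, and Sdhc in females had 0.03 (95% interval -0.08 to 0.13).

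**Figure D3:**
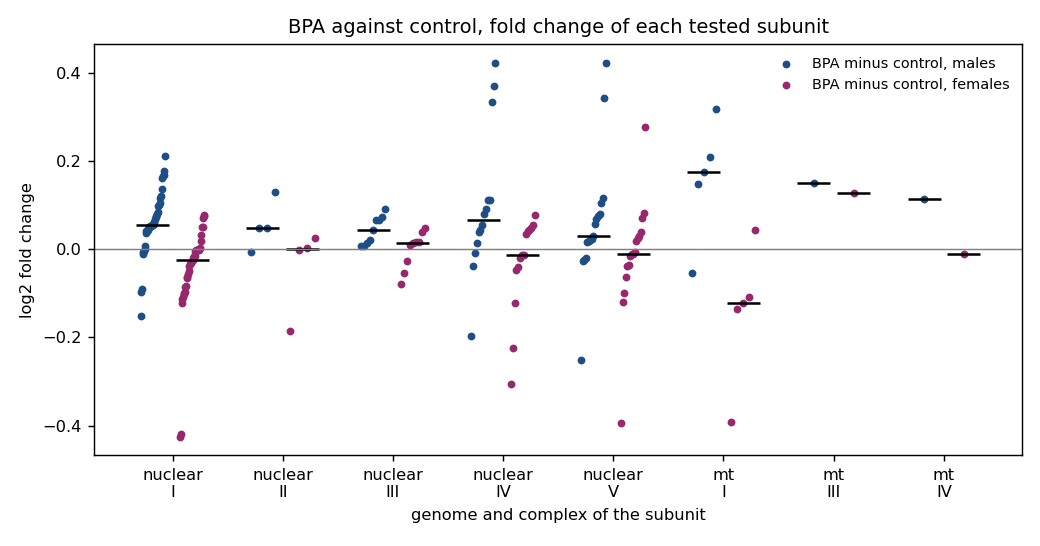
Log2 fold change of BPA against control for each tested member, in males (blue) and females (purple), by genome and complex; points are genes and lines are medians. In males 67 of 82 nuclear members lie above 0 and in females 30 of 82, and no member passed the adjusted threshold in either sex.

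The difference between the sexes was tested itself (BPA effect in females minus that in males). No member was called (0.0% of all genes were), and 3 had an unadjusted p under 0.05 in limma-voom and 3 in limma-trend, where the share over all genes was 4.72%. The nuclear members had a median difference of -0.07, with 15 of 82 above 0 against 46.3% of all genes, and the mitochondrial members -0.131, with 0 of 7 above 0. The median over all genes was -0.015. Of the marker lists, oligodendrocyte precursors had 10 of 10 above 0 (median 0.547, 6 at an unadjusted p under 0.05), committed and newly formed cells 7 of 9 (0.286, 3 of them) and myelinating cells 1 of 10 (-0.142). Blood had 6 of 6 above 0 (0.506), and neurons 4 of 9 (-0.015). Endothelial markers had 2 of 8 (-0.041), astrocytes 1 of 10 (-0.121), ependymal and choroid plexus 2 of 8 (-0.306), microglia 0 of 10 (-0.347) and mural and fibroblast 1 of 8 (-0.416). Their part was not tested. Leaving out single libraries moved the nuclear median between -0.117 (without female control 3) and -0.027 (without male control 4), and the mitochondrial one between -0.226 (without male control 1) and -0.038 (without female control 4).

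Of these members, mt-Nd6 and Atp5g2 are described. In males mt-Nd6 had 4.61, 4.34, 4.05 and 5.37 CPM in controls 1 to 4, against 7.53, 3.93, 5.73 and 6.65 CPM in BPA 1 to 4. In females the values were 7.00, 4.96, 5.88 and 4.88 CPM, against 5.29, 5.32, 3.20 and 3.69 CPM. Of the BPA males, 3 lay above every male control, and male BPA 2 below them all. The difference of the effects was -0.71 ± 0.31 (SE; adjusted p = 0.999, limma-voom). For Atp5g2, at about 1 CPM or less, it was -0.82 ± 0.35 (adjusted p = 0.999).

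Females and males were compared in the controls (4 against 4 libraries). No member was called (0.0551% of all genes were), and 0 had an unadjusted p under 0.05 in limma-voom and 0 in limma-trend, where the share over all genes was 2.91%. The nuclear median was -0.013, with 31 of 82 above 0 against 50.4% of all genes, and the mitochondrial median was 0.152, with 6 of 7 above 0. The median over all genes was 0.001. The smallest unadjusted p belonged to mt-Nd2, ranging from 658 to 868 CPM among the male and from 797 to 968 CPM among the female libraries, and a log2 fold change of 0.24 ± 0.14 (SE; adjusted p = 1.0). The libraries with over 100 counts of the nuclear copies Gm4076 and Gm13339 comprised 3 male controls and 1 female control. In these, mt-Nd2 had 867, 658 and 676 CPM (male controls 1, 2 and 4) and 877 CPM (female control 4). Male control 3 had 868 CPM, and female controls 1 to 3 had 968, 966 and 797 CPM. The part of this split in the sex difference was not tested. With single libraries left out the mitochondrial median ran from 0.063 (without male control 2) to 0.242 (without female control 3). The members at an unadjusted p under 0.05 numbered 3 without male control 4. Among the marker lists, blood had 6 of 6 above 0 (median 0.733, 3 at an unadjusted p under 0.05), microglia 10 of 10 (0.615), ependymal and choroid plexus 5 of 8 (0.432) and mural and fibroblast 6 of 8 (0.493). Endothelial markers had 8 of 8 (0.120), astrocytes 9 of 10 (0.104), neurons 5 of 9 (0.091), myelinating cells 7 of 10 (0.017), committed and newly formed cells 4 of 9 (-0.024) and precursors 0 of 10 (-0.182, 2 lower). Their part in the members' values was not tested.

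The X-linked members are Ndufa1 and Ndufb11, accessory subunits of complex I, and Cox7b of complex IV. In controls their female minus male log2 fold changes were -0.13 (Ndufa1), -0.05 (Ndufb11) and 0.26 (Cox7b), all with an adjusted p of 1.0 in limma-voom. That of Ndufb11 was 0.002 without male control 1. That of Cox7b was 0.035 without female control 3.

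Cox7b was the most variable of the abundant members. Its values were 55.7, 41.04, 44 and 36.1 CPM in male controls 1 to 4, and 40.8, 50.3, 83.8 and 44.3 CPM in female controls. They were 45.2, 44.6, 122.6 and 42.5 CPM in BPA males, and 42.8, 80.0, 39.7 and 63.1 CPM in BPA females. The highest values stood in female control 3, male BPA 3 and female BPA 2 and 4, and the groups overlapped. The log2 fold change of BPA against control was 0.20 ± 0.23 (SE; 95% interval -0.29 to 0.70; adjusted p = 0.90, limma-voom), and in males 0.37 (95% interval -0.33 to 1.07). Its SD within groups was larger than that of 96.3% of the 8932 genes with at least 10 CPM. Only 0.5% of its words are shared with other genes. At the other end, Atp5b had an SD of 0.031 and Atp5a1 of 0.041 on the log2 scale.

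**Figure D4:**
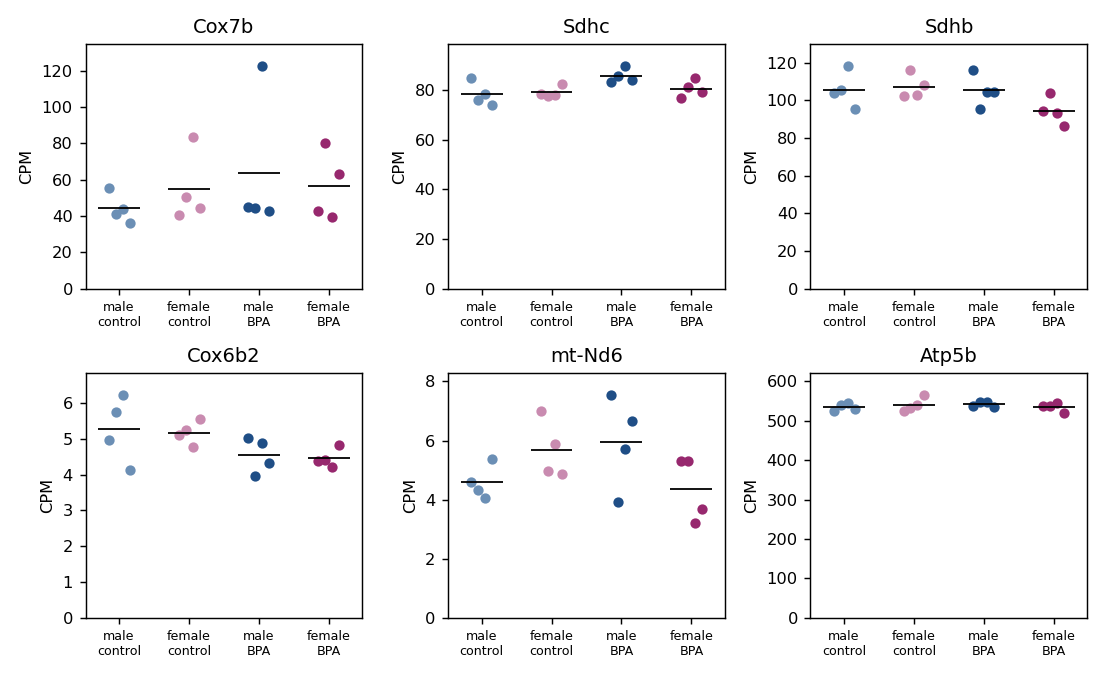
CPM in each library for 6 members, by group; points are libraries and lines are group means (n = 4), and each axis starts at 0. Cox7b reaches 122.6 CPM in male BPA 3, Sdhc, Sdhb, Cox6b2 and mt-Nd6 overlap between control and BPA libraries, and Atp5b stays between 519 and 565 CPM.

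The spread within groups differed by the authors' median transcript length, which need not be that of the main RNA. By that length Sdha (0.521 kb, SD 0.056) counted as short and Ndufb7 (2.529 kb, SD 0.078) as long. The 28 nuclear members under 0.55 kb had a median SD of 0.170 on the log2 scale. The 25 of 0.75 kb or more had a median SD of 0.078. Both sets, and the ribosomal protein genes below, took tested genes at any level. They are therefore not matched in level to the values limited to at least 10 CPM. Over the 71 nuclear members with at least 10 CPM it was 0.116, against 0.115 for all genes at that level, and over the 6 such mitochondrial members 0.204. The 83 genes of cytosolic ribosomal proteins, whose transcripts are also short, had a median SD of 0.209. Deviations were taken from the mean of all 16 libraries, so differences between groups remain in them. By their median deviation, the short members were low in male control 4 (-0.227) and female control 3 (-0.188). They were high in male control 1 (0.213) and male BPA 3 (0.206). The ribosomal protein genes deviated in the same direction in those 4 libraries (-0.140, -0.104, 0.180 and 0.099). Removing male control 1, male control 4 or male BPA 3 moved the males' nuclear median most, and removing female control 3 the females'. The cause was not tested.

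Genes around the respiratory chain were examined in 6 lists for BPA against control over both sexes, and none was called. Of 46 assembly factors tested, 1 was higher and 7 lower at an unadjusted p under 0.05, with a median log2 fold change of -0.016. Of 25 genes for copying and transcribing mitochondrial DNA, 2 were higher and 0 lower, and of 15 nuclear regulators 1 was higher and 2 lower. In the TCA cycle 0 of 19 were found in either direction, in glycolysis and lactate metabolism 1 of 23 was higher, and among electron carriers and ADP exchange 1 of 19 was lower. The share over all genes was 7.69%.

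Among the regulators, Nrf1, itself a motif-binding factor named above, ranged from 19.2 to 22.8 CPM in the 8 controls and from 20.2 to 24.2 CPM in the 8 BPA libraries, a log2 fold change of 0.12 ± 0.05 (SE). The GABP subunits Gabpa and Gabpb1 had -0.10 ± 0.04 and -0.12 ± 0.05. Their adjusted p-values in limma-voom were 0.54, 0.492 and 0.587. Tfam, which packages and transcribes mitochondrial DNA, had 23.2 ± 1.78 CPM and 23.5 ± 1.09 CPM, with a log2 fold change of 0.01 that turned below 0 without male control 2 or female control 2. The coactivator Ppargc1a had 22.8 CPM in male BPA 2 and from 3.55 to 7.91 CPM in the other 15 libraries; its log2 fold change was 0.10 and, without male BPA 2, -0.244.

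The smallest p in these lists belonged to Pdk4, a kinase that inhibits pyruvate dehydrogenase. It had 10.8, 13.2 and 22.8 CPM in controls and 13.5, 19.1 and 29.8 CPM with BPA (lowest, median, highest). In males all 4 BPA libraries lay above 3 of the 4 controls and overlapped with male control 2, and in females 3 of 4 lay above all controls. The log2 fold change was 0.52 ± 0.12 (SE; unadjusted p = 0.000772, adjusted p = 0.232, limma-voom). Coq8a, needed for making ubiquinone, had -0.18 ± 0.05 (adjusted p = 0.367). The assembly factors with the smallest p were Cox18 (-0.18 ± 0.06), Sdhaf1 (-0.115 ± 0.045) and Uqcc3 (0.311 ± 0.125), with adjusted p-values of 0.482, 0.54 and 0.551.

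Genes known by other symbols stood outside the rule. Ndufb1-ps, which RefSeq lists as Ndufb1, had a level of 29.4 ± 5.78 CPM (control) against 28.6 ± 4.92 CPM (BPA). Usmg5, which RefSeq lists as Atp5md, had 2.43 ± 0.586 against 2.26 ± 0.700 CPM (SD, n = 8). Atp5s, Cox7a2l and Ndufa4 (now counted with complex IV) were kept where the symbol rule put them.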

How the data were processed

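RNA of O4-sorted cells went into stranded poly(A) libraries, 100 ng each (labels' protocols). The submitters' processing notes list bcl2fastq 2.20.0.422, STAR 2.5.3a, HTSeq 0.6.1p1, DESeq2 1.16.1 and build mm39, without roles. The table deposited by the authors gives raw counts, normalized counts and length-normalized counts; raw counts were analysed, and the others served only to recover transcript lengths. Because the automated unit check could not read the table's layout, limma-voom took the place of the count test planned as the main test.

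Genes were kept with at least 10 counts in a group's worth of libraries and 15 counts overall (16339 genes, 99.947% of counts). TMM scaling was re-implemented in R 4.3.3. The limma 3.58.1 model had a mean for each of the 4 groups over 16 libraries, with robust empirical Bayes. Tests were two-sided, Benjamini-Hochberg adjusted over all genes at 0.05. Alignments used Biopython 1.88. The fit was tested on simulated counts with known changes. A gene at 0 could hold up to 3 counts, or 0.0707 to 0.127 CPM by library.

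Symbols came from GENCODE M21, which held 31717 of 32207 genes. The members and gene lists were chosen with earlier results of these data known, and shorter promoter motifs replaced longer forms after both had been counted. Named members were the mitochondrial, isoform-pair and X-linked ones, the highest and lowest per complex, and the 5 smallest p per comparison. Other named genes came from the 3 smallest p per list, plus Ppargc1a, Tfam, Nrf1, Cycs and Pdk4. Some further genes, such as the Atp5a1, Ndufb6 and promoter examples, were named after their values were seen. Alternatives were limma-trend, other scalings and filters, a replicate block and leaving out libraries. Results for 1 member the rule would name are not reported here.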

Additional observations from a re-analysis of the deposited data

Results flagged for a closer look

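Of 104 groups of 4 libraries examined, over 26 measures, 3 held a library whose gap to the nearest other exceeded Dixon's 95% critical value, where chance alone flags about 1 group in 20. Cox7b stood at 122.6 CPM in male BPA 3, against 42.5 to 45.2 CPM in the other BPA males. Ndufa8, an accessory subunit of complex I, stood at 54.17 CPM in male control 3, against 44.7 to 46.3 CPM in the other male controls. Sdhc stood at 82.43 CPM in female control 4, against 77.8 to 78.4 CPM in the other female controls.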

How the results depend on the processing

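The number of members called was 0 in all 5 comparisons under every alternative run: limma-trend and the addition of nuclear-copy counts (both chosen after seeing the files), median-of-ratios scaling, totals without mitochondrial genes, no filter, a stricter filter, no term for sex (mean effect only), and leaving out libraries. The planned DESeq2 and edgeR tests were not run. With the replicate number as a block, 0 members were called and the nuclear median for both sexes was 0.025. At an unadjusted p under 0.05 the block gave 0 members for both sexes and 2 in females. The numbers do not pair the libraries (correlations of same-numbered deviations from -0.2 to 0.3). Over single left-out libraries the nuclear median for both sexes ran from 0.007 to 0.048, with 0.024 in the main fit. The mitochondrial one ran from -0.013 (without male BPA 1) to 0.073 (without male control 1), with 0.036 in the main fit. The nuclear sex median in controls ran from -0.06 to 0.036. Without male BPA 2 and female BPA 1 together the mitochondrial median was 0.11 for both sexes and -0.011 in females. Directions that turned were Ndufb11 between sexes (-0.115 to 0.002 over single left-out libraries), Tfam (-0.014 to 0.045, below 0 without male control 2 or female control 2) and Ppargc1a (-0.244 to 0.269, and -0.194 without male BPA 2 and female BPA 1 together). The cause was not tested. The median 95% interval for both sexes reached 0.207 (log2) either side for mitochondrial and 0.137 for nuclear members, and single low nuclear members had wider ones (Cox6a2 -0.70 to 0.83).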
